A study of Mus musculus with 12 samples.

Results

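The genes by which macrophages take up, store, release and sense iron were followed in bone marrow-derived macrophages (BMDMs) treated with IL-13, DKK1 or both. They are 9 genes taken by name from the deposited count table: Tfrc, Slc11a2 and Slc11a1 for uptake, Fth1, Ftl1 and Ncoa4 for storage, Slc40a1 for export, and Ireb2 and Aco1 for sensing. All 9 were found among the 17723 genes of the table, and all 9 were among the 16306 that passed the filter on low counts. The BMDMs were grown from bone marrow of wild-type C57BL/6 mice (C57Bl/6J in the study's methods), so all groups share that genotype, and each of the 4 groups had 3 libraries. One group received IL-13 (2 ng/ml, a type 2 cytokine) together with DKK1 (30 ng/ml, Dickkopf1, a secreted antagonist of Wnt signaling), another DKK1 alone, another IL-13 alone, and the last was left untreated, each for 24 h. The RNA came from whole cultures, so fewer cells of a type and less RNA per cell cannot be told apart.

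Iron reaches macrophages bound to transferrin, through the transferrin receptor encoded by Tfrc, and in engulfed red cells, and the transporters encoded by Slc11a2 (DMT1) and Slc11a1 (NRAMP1) move it out of endosomes and phagosomes. Iron that is not used is held in ferritin, a shell of heavy (Fth1) and light (Ftl1) chains that Ncoa4 delivers to lysosomes for breakdown, or it leaves the cell through ferroportin (Slc40a1). The iron regulatory proteins encoded by Aco1 and Ireb2 bind hairpins in mRNAs called iron response elements (IREs) when iron is scarce, which blocks translation from the 5′ UTR and stabilizes an mRNA from the 3′ UTR.

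Hairpins of this kind were searched for in the UTRs of GENCODE vM39 transcripts on GRCm39. The search asked for the loop CAGTGN with any last base but G, 5 paired bases on each side (G-T pairs allowed) and an unpaired C just before the stem, on the transcribed strand only. The 30 bases around each hit are given 5′ to 3′ as DNA, with the 6 loop bases in capitals.
Fth1 5′ UTR, chr19:9960095-9960124, plus strand: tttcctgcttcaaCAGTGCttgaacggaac
Ftl1 5′ UTR, chr7:45109203-45109232, minus strand: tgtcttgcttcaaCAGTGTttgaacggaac
Slc40a1 5′ UTR, chr1:45964625-45964654, minus strand: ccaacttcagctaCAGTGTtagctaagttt
Tfrc 3′ UTR, chr16:32450036-32450065, plus strand: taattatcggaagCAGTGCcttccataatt
Tfrc 3′ UTR, chr16:32450415-32450444, plus strand: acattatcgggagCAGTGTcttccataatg
Tfrc 3′ UTR, chr16:32450480-32450509, plus strand: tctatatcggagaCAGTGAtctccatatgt
Tfrc 3′ UTR, chr16:32450527-32450556, plus strand: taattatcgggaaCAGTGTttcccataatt
The ferritin chains and ferroportin each had a single hit in the 5′ UTR and Tfrc had 4 in the 3′ UTR. Over all coding genes, 36 of 21254 (0.169%) had such a hit in a 5′ UTR and 185 of 21144 (0.875%) in a 3′ UTR. The other members had no hit, which says only that this pattern was not in their annotated UTRs, and Slc11a2 is known for an IRE in the 3′ UTR of some transcripts. A hit is a match of letters, and protein binding and translation were not measured here.

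The libraries held 32224036 to 40917086 counts, and the spread between replicates beyond counting error (biological coefficient of variation) was 0.0612. Of the counts between 1 and 20, 76% were even, so low counts may not be independent reads. The lowest count of any of the 9 genes in any library was 1079, and whether such higher counts are independent reads was not tested. All 10 macrophage markers were in the table, at a summed level of 21000 to 47500 CPM (a gene's share of the library's counts, scaled to a common total), and 8 of 10 erythroid markers were not listed, globin genes included, with the other two at a summed level of at most 2.03 CPM. Neutrophil markers summed to 719 to 887 CPM with IL-13 + DKK1, 521 to 551 CPM with DKK1 and 475 to 692 CPM with IL-13, against 714 to 792 CPM in untreated BMDMs. Stromal markers summed to 58.9 to 174 CPM across the libraries. The macrophage sum moved with treatment, at 36000 to 36900 CPM with IL-13 + DKK1, 46700 to 47500 CPM with DKK1 and 21000 to 22100 CPM with IL-13, against 28800 to 29500 CPM in untreated BMDMs, and its part in the results below was not tested.

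Levels below are CPM after scaling by TMM. Tests are the quasi-likelihood test of edgeR, fitted over all genes, with Benjamini-Hochberg adjustment. Calling a gene took both an adjusted p below 0.05 and a log2 fold change beyond 1 in either direction. Log2 fold changes are given ± their standard error. Per kilobase of merged exons, the ferritin genes stood first in every group. Fth1 was at 3300 ± 91.3 with IL-13 + DKK1, 4140 ± 200 with DKK1, 2290 ± 173 with IL-13 and 2270 ± 33.7 CPM per kilobase in untreated BMDMs (SD, n = 3 each). Ftl1 was at 1940 ± 26.2 with IL-13 + DKK1, 1930 ± 28.2 with DKK1, 3200 ± 24.0 with IL-13 and 2930 ± 18.8 CPM per kilobase in untreated BMDMs (SD, n = 3 each). Slc11a1 came next in every group, with mean levels of 119 to 207 CPM per kilobase, and the other 6 genes lay between 3.75 and 74.5 CPM per kilobase. The order of Fth1 and Ftl1 without DKK1 turned with the length used: by the length of the canonical transcript, Fth1 was above Ftl1 in all groups. Reads assigned to copies of similar sequence, described below, are not part of these levels. In untreated BMDMs such copies took on average 33.7% of the summed counts of Ftl1 and its copies. The share was 58.3% for Ncoa4 and 0.828% for Fth1.

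**Figure D1:**
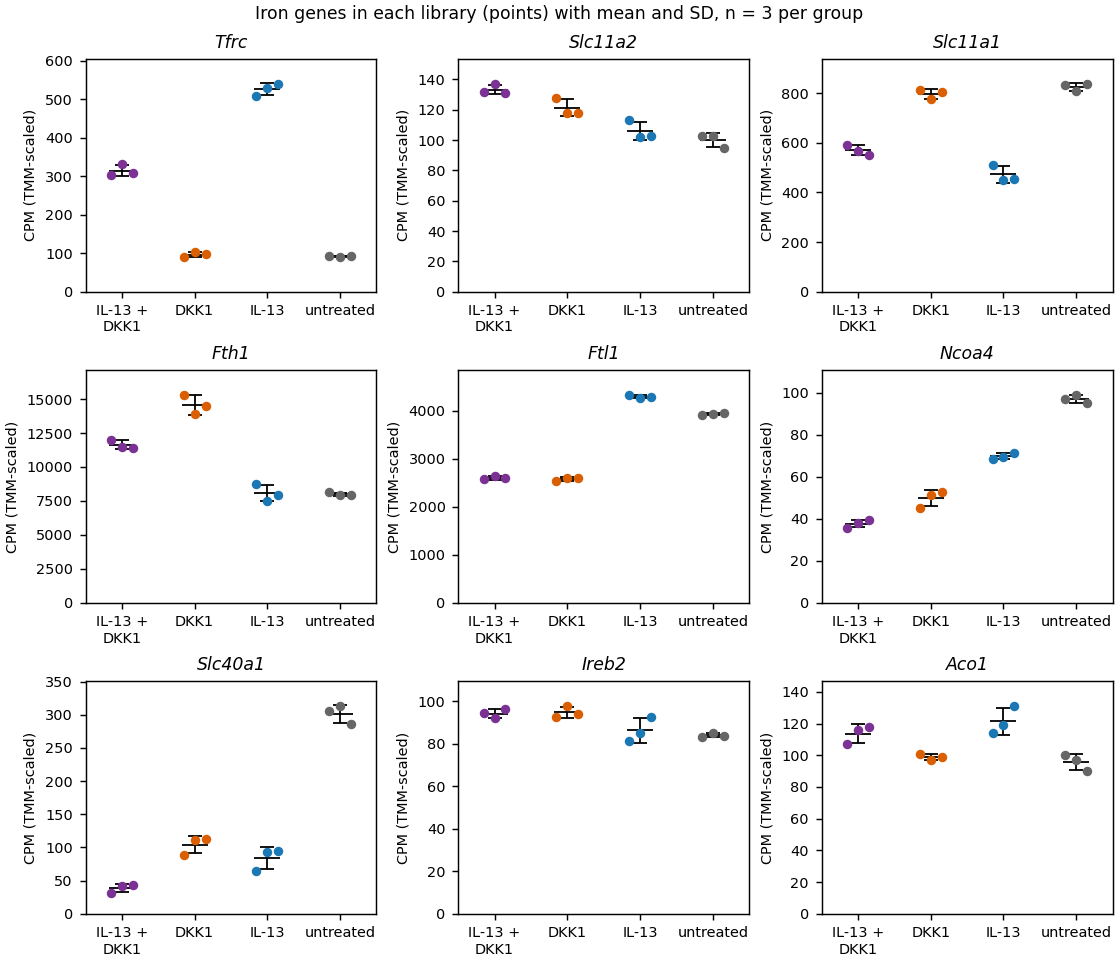
Level of each of the 9 genes (vertical axis, TMM-scaled CPM, starting at 0) in the 3 libraries of each group (points), with the mean and SD (black). Tfrc was high in both groups with IL-13, Fth1 high and Ftl1 low in both groups with DKK1, and Slc40a1 and Ncoa4 were lowest with IL-13 + DKK1.

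With DKK1, ferroportin and the ferritin receptor Ncoa4 fell, and the 2 ferritin chains moved in opposite directions, Fth1 up and Ftl1 down. Of the 9 genes, 1 was called against untreated BMDMs (Slc40a1), where 11.6% of all genes tested were called, 5.18% higher and 6.46% lower. At the adjusted p alone, 3 of the 9 were higher (22.6% of all genes) and 3 lower (23%), and together these 6 of 9 compare with 45.6% of all genes. The median log2 fold change of the 9 was 0.05, against -0.04 over all genes.

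With IL-13, the transferrin receptor rose strongly while ferroportin and Slc11a1 fell. Of the 9 genes, 2 were called against untreated BMDMs, Tfrc higher and Slc40a1 lower, where 8.13% of all genes were called, 4.64% higher and 3.49% lower. At the adjusted p alone, 3 were higher (23.9% of all genes) and 3 lower (23.2%), which is 6 of 9 against 47% of all genes. The median of the 9 was 0.04, against -0.02 over all genes.

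With IL-13 + DKK1, 3 of the 9 genes were called against untreated BMDMs (11.8% of all genes, 5.24% higher and 6.59% lower), Tfrc higher and Slc40a1 and Ncoa4 lower. All 9 passed the adjusted p alone, 5 higher (26% of all genes) and 4 lower (23.5%), where 49.5% of all genes passed in either direction. Their median was 0.16, against -0.01 over all genes. The comparisons with untreated BMDMs share the untreated libraries.

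**Figure D2:**
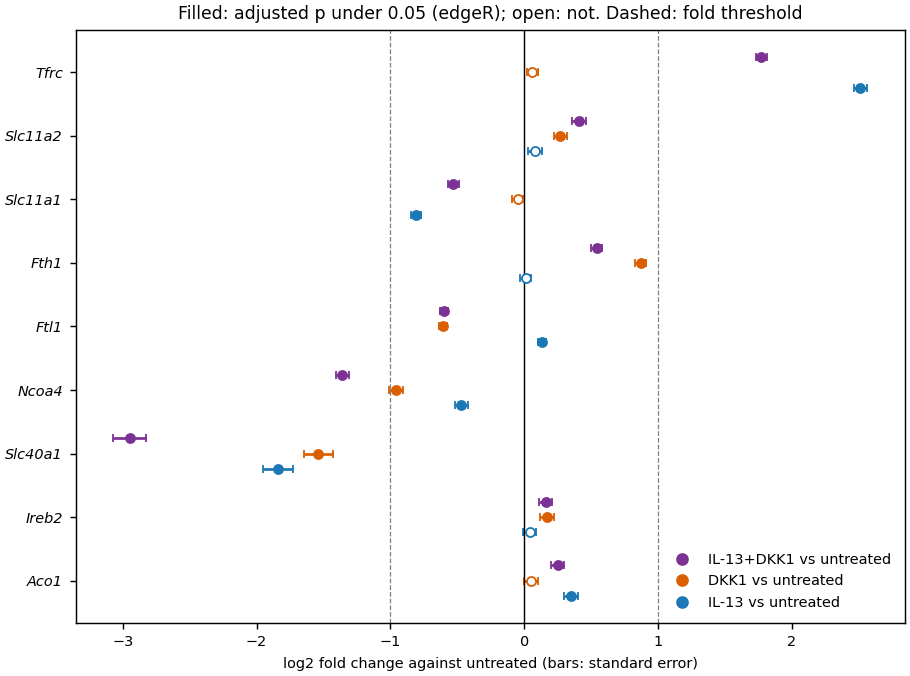
Log2 fold change against untreated BMDMs (horizontal axis, bars give the standard error) of the 9 genes with IL-13 + DKK1, DKK1 and IL-13. Filled points passed an adjusted p under 0.05 in edgeR's quasi-likelihood test and dashed lines mark the fold threshold; Slc40a1 lay beyond the lower line under all 3 treatments and Tfrc beyond the upper line in the 2 with IL-13.

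Tfrc (ENSMUSG00000022797, chromosome 16 of GRCm39, 32427556 to 32451612), whose product carries transferrin into the cell, was at 510, 530 and 540 CPM with IL-13, against 92.6, 91.1 and 93.0 CPM in untreated BMDMs. The 2 groups lay far apart, with the lowest IL-13 library above the highest untreated one by many times the spread between replicates. This was a 5.71-fold rise (log2 fold change 2.51 ± 0.05, adjusted p = 6.49e-20 by edgeR's quasi-likelihood test), and Tfrc ranked 2 of 16306 genes by p in that comparison. With DKK1 alone its levels were 90.5, 102 and 96.8 CPM, which overlapped the untreated range, and the change did not pass the test (0.06 ± 0.04, adjusted p = 0.262 by edgeR). Without DKK1 replicate 1 that difference passed the adjusted p, at a log2 fold change of 0.12.

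With IL-13 + DKK1, Tfrc was at 304, 332 and 309 CPM, against 510, 530 and 540 CPM with IL-13. These libraries lay below every IL-13 library and above every untreated one. Relative to IL-13 alone Tfrc fell by 0.74 ± 0.04 on the log2 scale (adjusted p = 2.33e-12 by edgeR), short of the fold threshold, and relative to DKK1 alone it rose by 1.71 ± 0.04 (adjusted p = 2.42e-17 by edgeR), rank 10 of 16306 by p. The effect of DKK1 differed with and without IL-13: the interaction, the log2 effect of DKK1 with IL-13 minus its effect without, was -0.81 ± 0.06 (adjusted p = 1.88e-09 by edgeR).

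Dividing cells need iron and carry many transferrin receptors, so Tfrc was set beside a list of 12 cycling-cell genes. With IL-13, 7 of the 12 were called against untreated BMDMs (8.13% of all genes), all higher, and their summed level was 2130 to 2300 CPM with IL-13, against 875 to 1140 CPM in untreated BMDMs. With IL-13 + DKK1, 11 of the 12 were called against IL-13 (10.8% of all genes), all lower, and the sum was 742 to 783 CPM, below every untreated library. The genes behind that sum did not move as one: against untreated BMDMs, 3 of the 12 were called higher (5.24% of all genes) and 2 lower (6.59%), with a median log2 fold change of -0.27. Those higher were the replication genes Mcm5, Rrm2 and Mcm2, the last at 42.1 CPM with IL-13 + DKK1, against 18.1 CPM in untreated BMDMs. Those lower were the mitotic genes Ccnb2 and Cdc20. At the adjusted p alone, 3 of the 12 were higher (26% of all genes) and 6 lower (23.5%). Pcna, also a replication gene, was at 131 CPM with IL-13 + DKK1, below its 166 CPM in untreated BMDMs. Tfrc in the same libraries was 3.42-fold above untreated BMDMs (log2 fold change 1.77 ± 0.04, adjusted p = 1.83e-18 by edgeR). With DKK1 alone the sum was 368 to 419 CPM and Tfrc stayed near the untreated level. The part of cell cycling in the Tfrc levels was not tested.

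**Figure D3:**
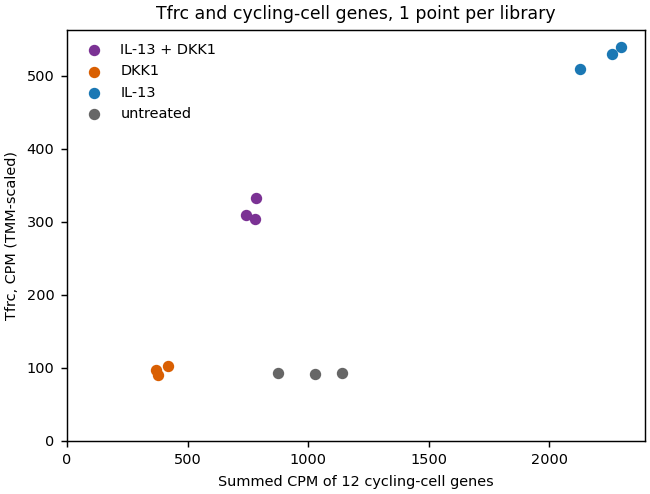
Tfrc (vertical axis, TMM-scaled CPM) against the summed CPM of 12 cycling-cell genes (horizontal axis), 1 point per library, both axes from 0. IL-13 + DKK1 libraries had a smaller sum than untreated ones (742 to 783 against 875 to 1140 CPM) and more Tfrc (304 to 332 against 91.1 to 93.0 CPM), although 3 of the 12 summed genes were called higher there.

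Slc11a2 (ENSMUSG00000023030, chromosome 15, 100285776 to 100322953), the transporter that carries iron out of endosomes, changed little. It was at 128, 118 and 118 CPM with DKK1, against 103, 103 and 94.9 CPM in untreated BMDMs. The groups did not overlap, and the log2 fold change was 0.27 ± 0.05 (adjusted p = 3.96e-05 by edgeR). With IL-13 + DKK1 it was at 132, 137 and 131 CPM, above every IL-13 library (113, 102 and 103 CPM), a log2 fold change of 0.33 ± 0.05 (adjusted p = 3.14e-06 by edgeR). IL-13 alone gave 0.08 ± 0.05 against untreated BMDMs (adjusted p = 0.152 by edgeR). The rise of 0.14 with IL-13 + DKK1 over DKK1 (adjusted p = 0.019 by edgeR) did not pass without DKK1 replicate 2 (0.10) or 3 (0.11) or IL-13 + DKK1 replicate 2 (0.12) or 3 (0.14). Its exons overlap those of Gm5475 on the opposite strand.

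Slc11a1 (ENSMUSG00000026177, chromosome 1, 74414303 to 74425448), the phagosomal metal transporter of macrophages, fell with IL-13. C57BL/6 mice are known to carry a loss-of-function allele of this gene, so its mRNA level is no measure of transport here. It was at 511, 451 and 455 CPM with IL-13, against 834, 807 and 837 CPM in untreated BMDMs, with no overlap (log2 fold change -0.81 ± 0.04, adjusted p = 1.00e-12 by edgeR). With DKK1 alone it was at 812, 775 and 803 CPM, within reach of the untreated libraries (-0.05 ± 0.04, adjusted p = 0.329 by edgeR), although the adjusted p passed with upper-quartile scaling (-0.11) and library size only (-0.17). With IL-13 + DKK1 it was at 593, 568 and 551 CPM, above every IL-13 library and below every library without IL-13. The difference from IL-13 alone was 0.27 ± 0.04 (adjusted p = 1.34e-05 by edgeR) and the interaction 0.32 ± 0.06 (adjusted p = 0.000243 by edgeR).

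Fth1 (ENSMUSG00000024661, chromosome 19, 9957911 to 9962462), the ferritin chain that oxidizes iron for storage, was at 15300, 13900 and 14500 CPM with DKK1, against 8130, 7920 and 7930 CPM in untreated BMDMs. Every DKK1 library was above every untreated one, and the log2 fold change of 0.87 ± 0.04 (adjusted p = 8.71e-14 by edgeR) was short of the fold threshold. IL-13 libraries were at 8730, 7530 and 7940 CPM, lying on both sides of the untreated libraries (0.01 ± 0.04, adjusted p = 0.818 by edgeR). With IL-13 + DKK1 it was at 12000, 11500 and 11400 CPM, between DKK1 alone and IL-13 alone with no overlap. The rise over IL-13 was 0.53 ± 0.04 (adjusted p = 3.55e-10 by edgeR), smaller than that of DKK1 without IL-13 by an interaction of -0.34 ± 0.06 (adjusted p = 0.000115 by edgeR).

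Ftl1 (ENSMUSG00000050708, chromosome 7, 45107367 to 45109308), the chain that helps form the iron core, moved the other way. It was at 2540, 2600 and 2610 CPM with DKK1, against 3910, 3930 and 3960 CPM in untreated BMDMs, with no overlap (log2 fold change -0.61 ± 0.03, adjusted p = 1.37e-14 by edgeR). With IL-13 + DKK1 it was at 2570, 2640 and 2600 CPM, against 4330, 4270 and 4280 CPM with IL-13 (-0.72 ± 0.03, adjusted p = 8.86e-16 by edgeR). The 2 groups with DKK1 overlapped, and the difference between IL-13 + DKK1 and DKK1 was 0.01 ± 0.03 (adjusted p = 0.791 by edgeR), or 0.07 with library size only, which passed (adjusted p = 0.0413). IL-13 alone raised it by 0.13 ± 0.03 (adjusted p = 3.00e-04 by edgeR). The interaction of -0.12 ± 0.04 (adjusted p = 0.0205 by edgeR) did not pass with upper-quartile scaling (-0.06, adjusted p = 0.24) or library size only (-0.04, adjusted p = 0.436).

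The counts of Fth1 per count of Ftl1 in the same library do not depend on scaling. They were 6.02, 5.37 and 5.56 with DKK1, against 2.08, 2.02 and 2.00 in untreated BMDMs, a 2.78-fold higher ratio. They were 4.69, 4.35 and 4.40 with IL-13 + DKK1, against 2.02, 1.76 and 1.86 with IL-13, a 2.39-fold higher ratio. Libraries with DKK1 did not overlap those without it. The exact two-sided permutation test gave p = 0.1 for either contrast, the smallest that a permutation of 3 libraries against 3 allows (0.136 after Benjamini-Hochberg adjustment over 15 ratio comparisons), so this test cannot reach 0.05.
Fth1 and Ftl1 together took 1.64% ± 0.0477 of all counts with DKK1, against 1.23% ± 0.00514 in untreated BMDMs (SD, n = 3 each). With the copies described below counted in, the share was 1.77% ± 0.0468 with DKK1, against 1.45% ± 0.00223 in untreated BMDMs.

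**Figure D4:**
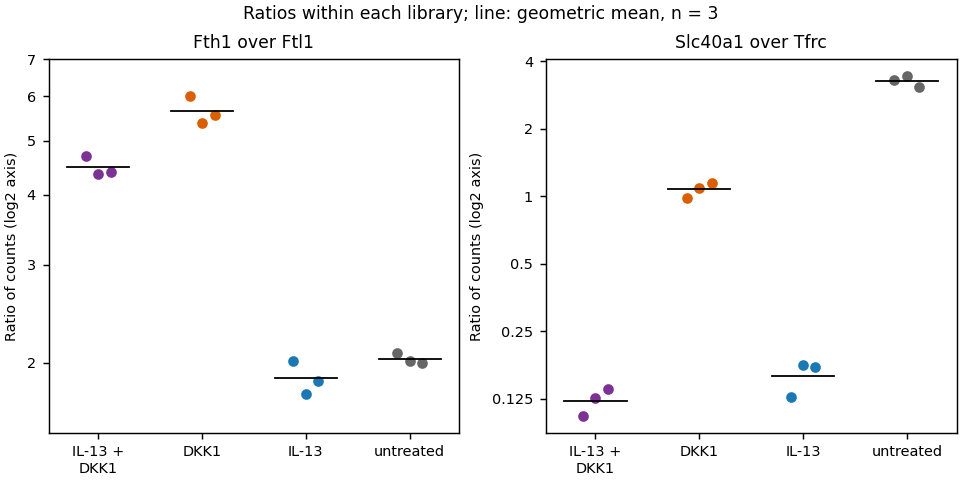
Counts of Fth1 over Ftl1 (left) and of Slc40a1 over Tfrc (right) in each library (points, log2 axes), with the geometric mean of each group (line, n = 3). The left ratio was 4.35 to 6.02 in libraries with DKK1 and 1.76 to 2.08 in those without; the right ratio was 0.105 to 0.176 in libraries with IL-13 and 0.982 to 3.43 in those without.

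Ferritin genes have many processed copies, and reads of a near-identical copy can be assigned to either. For Ftl1, 7 genes with at least 90% identity over at least 200 bases were in the table. Of these, Gm10252 has exons that overlap those of Ftl1 on the opposite strand, and the others are copies elsewhere. For Fth1 only Fth1-ps met these limits, with 90.5% identity and 0.795% of the Fth1 counts. The copy with the most counts was Ftl1-ps1 on chromosome 13, which GENCODE lists as protein-coding, with 99.6% identity over 910 bases and counts equal to 45.5% of those of Ftl1. Ftl1-ps1 was at 1170 CPM with DKK1, against 1790 CPM in untreated BMDMs, and its log2 fold change was that of its parent (-0.61 ± 0.03, adjusted p = 1.21e-13 by edgeR). The copies took 33% to 33.9% of the counts of the Ftl1 family in libraries with DKK1 and 33.5% to 33.8% in untreated ones. When each gene was summed with its copies (for Fth1 also Fth-ps3, taken by its symbol), the log2 fold changes with DKK1 were 0.87 for Fth1 and -0.61 for Ftl1, as for the parents alone.

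Ncoa4 (ENSMUSG00000056234, chromosome 14, 31881822 to 31902234), the receptor that takes ferritin to the lysosome, fell in all 3 treated groups. It was at 45.3, 51.3 and 52.6 CPM with DKK1, against 97.0, 98.9 and 94.9 CPM in untreated BMDMs, with no overlap (log2 fold change -0.96 ± 0.05, adjusted p = 9.83e-13 by edgeR). This value lay just short of the fold threshold, and upper-quartile scaling (-1.02) or library size only (-1.08) took it past. With IL-13 it was at 68.3, 69.6 and 71.4 CPM, below every untreated library (-0.47 ± 0.05, adjusted p = 9.22e-08 by edgeR). With IL-13 + DKK1 it was at 35.8, 38.0 and 39.3 CPM, below every library of the other groups (-1.36 ± 0.05 against untreated BMDMs, adjusted p = 2.75e-15 by edgeR). The interaction was 0.08 (adjusted p = 0.51 by edgeR), so a difference between the effects of DKK1 with and without IL-13 was not detected.

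Ncoa4-ps on chromosome 12, a transcribed copy with 99.9% identity over 1878 bases, held 137% as many counts as Ncoa4 itself. It was at 49.5 CPM with IL-13 + DKK1, against 135 CPM in untreated BMDMs (-1.45 ± 0.05, adjusted p = 1.61e-16 by edgeR), so parent and copy cannot be told apart by their values. Summed, they changed by a log2 fold change of -0.98 with DKK1, -0.49 with IL-13 and -1.41 with IL-13 + DKK1 against untreated BMDMs. Exons of Ncoa4 also overlap those of Timm23 on the opposite strand, a gene with log2 fold changes of -0.04 ± 0.15 with DKK1 and 0.18 ± 0.15 with IL-13 + DKK1 (adjusted p = 0.86 and 0.335 by edgeR).

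**Figure D5:**
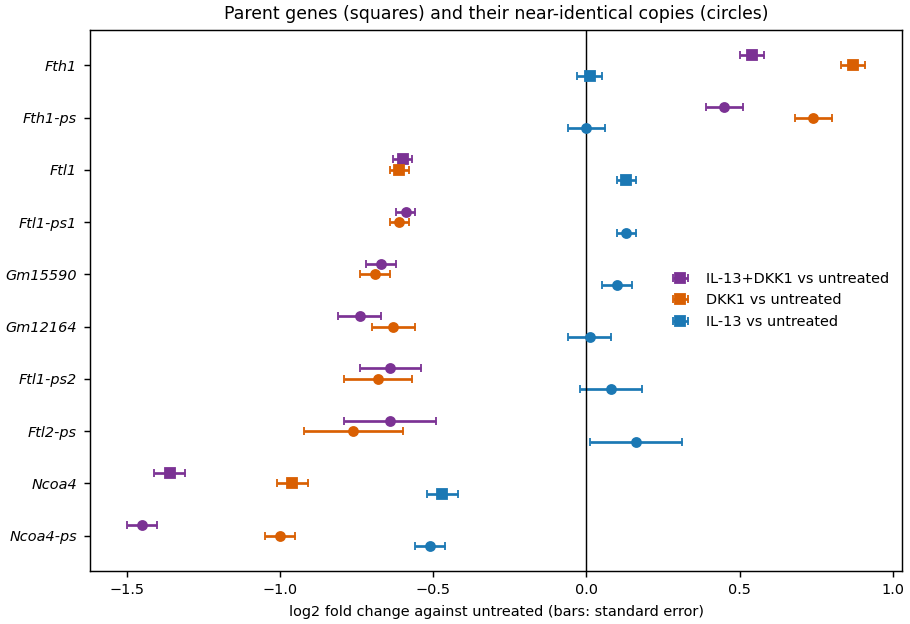
Log2 fold change against untreated BMDMs (horizontal axis, bars give the standard error) of Fth1, Ftl1 and Ncoa4 (squares) and of near-identical copies (circles) with IL-13 + DKK1, DKK1 and IL-13. The copies shown lay near their parents. With DKK1, Ftl1 and Ftl1-ps1 were both at -0.61, and with IL-13 + DKK1, Ncoa4 was at -1.36 and Ncoa4-ps at -1.45. Gm5278 and Gm10252 are not shown. With DKK1 they were at -0.66 ± 0.23 and 0.17 ± 0.34.

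Slc40a1 (ENSMUSG00000025993, chromosome 1, 45947211 to 45965683) encodes ferroportin, the exporter of iron from cells, and was the only one of the 9 genes called in all 5 comparisons between groups. It was at 88.9, 111 and 112 CPM with DKK1, against 305, 313 and 286 CPM in untreated BMDMs, 2.9-fold lower (log2 fold change -1.54 ± 0.11, adjusted p = 7.41e-11 by edgeR). It was at 65.0, 93.3 and 94.1 CPM with IL-13, 3.58-fold lower than in untreated BMDMs (-1.84 ± 0.11, adjusted p = 7.68e-12 by edgeR). Treated and untreated libraries did not overlap, and the lowest treated library was replicate 1 in either case.

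With IL-13 + DKK1, Slc40a1 was at 31.9, 42.0 and 42.7 CPM, below every library of the other 3 groups and 7.73-fold lower than in untreated BMDMs (-2.95 ± 0.12, adjusted p = 3.27e-15 by edgeR). It fell by 1.11 ± 0.12 relative to IL-13 (adjusted p = 4.95e-08 by edgeR) and by 1.41 ± 0.12 relative to DKK1 (adjusted p = 2.06e-09 by edgeR). Of the 9 genes it was the 1 called against IL-13 (10.8% of all genes, 4.66% higher and 6.1% lower), and without IL-13 + DKK1 replicate 1 it was -0.99, just under the fold threshold. In the comparison with DKK1, 2 of the 9 were called (5.51% of all genes, 3.22% higher and 2.29% lower), Tfrc higher and Slc40a1 lower. The interaction of 0.43 ± 0.16 missed the threshold (adjusted p = 0.0515 by edgeR). It passed with upper-quartile scaling (0.48), library size only (0.50) or replicate number as a block (0.44, adjusted p = 0.00199 by edgeR). It also passed without IL-13 replicate 2 (0.50) or 3 (0.51) or IL-13 + DKK1 replicate 1 (0.54).

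The count of Slc40a1 per count of Tfrc sets export against transferrin-bound uptake. It was 0.105, 0.126 and 0.138 with IL-13 + DKK1, 0.982, 1.09 and 1.15 with DKK1, and 0.127, 0.176 and 0.174 with IL-13, against 3.30, 3.43 and 3.07 in untreated BMDMs. The ratio was 26.7-fold lower with IL-13 + DKK1, 3.04-fold lower with DKK1 and 20.7-fold lower with IL-13 than in untreated BMDMs, with no overlap in any of these (exact permutation p = 0.1 each, the smallest possible). IL-13 + DKK1 overlapped IL-13 alone (exact permutation p = 0.2).

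The genes of the iron regulatory proteins changed little, and no log2 fold change of either went beyond 0.35 in the 5 comparisons. Ireb2 (ENSMUSG00000032293, chromosome 9, 54770970 to 54820011), which encodes IRP2, was at 92.8, 97.8 and 94.3 CPM with DKK1, against 83.4, 85.2 and 83.9 CPM in untreated BMDMs. The groups did not overlap, but the log2 fold change of 0.17 ± 0.05 (adjusted p = 0.00313 by edgeR) was small and did not pass with library size only (0.06, adjusted p = 0.323). IL-13 libraries ranged from 81.3 to 92.9 CPM and IL-13 + DKK1 libraries from 92.2 to 96.3 CPM, which overlap, and their difference of 0.12 (adjusted p = 0.0289 by edgeR) did not pass with library size only (0.08) or in DESeq2 (0.12), nor without any 1 of IL-13 replicates 1 (0.08) and 2 (0.11), DKK1 replicates 1, 2 and 3 (0.11 each) and IL-13 + DKK1 replicates 1 (0.12) and 3 (0.10). Against untreated BMDMs, IL-13 + DKK1 gave 0.16 (adjusted p = 0.00439 by edgeR), which did not pass with library size only (0.10).

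Aco1 (ENSMUSG00000028405, chromosome 4, 40142998 to 40199010), which encodes IRP1, a cytosolic aconitase when it holds an iron-sulfur cluster, was at 114, 119 and 131 CPM with IL-13, against 99.9, 96.7 and 90.1 CPM in untreated BMDMs. No IL-13 library reached down to an untreated one (log2 fold change 0.35 ± 0.05, adjusted p = 7.65e-06 by edgeR). With DKK1 it was at 101, 97.2 and 99.0 CPM, which overlapped the untreated libraries (0.05, adjusted p = 0.465 by edgeR). With IL-13 + DKK1 it was at 107, 116 and 118 CPM, above untreated BMDMs (0.25, adjusted p = 0.000284 by edgeR) and overlapping IL-13 alone (-0.09, adjusted p = 0.147 by edgeR). The last difference passed the adjusted p with library size only and without IL-13 replicate 1 (-0.14 each). The Ireb2 to Aco1 count ratio was 0.708 to 0.718 with IL-13, against 0.835 to 0.931 in untreated BMDMs, without overlap (exact permutation p = 0.1, the smallest possible).

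In the remaining tests, 8 of the 9 genes passed the adjusted p alone between IL-13 + DKK1 and IL-13 (44.4% of all genes), 4 higher (22.5%) and 4 lower (21.9%). Between IL-13 + DKK1 and DKK1, 7 of 9 passed (39.3%), 3 higher (20.2%) and 4 lower (19.1%). In the interaction 4 of 9 passed (26.3%), Slc11a1 with a positive sign (12%) and Fth1, Ftl1 and Tfrc with a negative one (14.2%). With the fold threshold added, 0 of 9 passed in the interaction in edgeR and 0 in DESeq2, against 4.62% of all genes in edgeR (2.12% positive and 2.5% negative). At an unadjusted p under 0.05, 2 of the 9 had a positive and 3 a negative interaction in edgeR.

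For each member, the genes with the most similar profile over the 12 libraries were looked up among 8540 genes of at least 10 CPM. The libraries form 4 groups, so a high r means mainly a similar order of the group means. The closest to Slc40a1 were Per3 (Pearson r = 0.989) and Dbp (0.986), both of the circadian clock, and Galc (0.985). Per3 was at 15.1 CPM with IL-13 + DKK1, 25.8 CPM with DKK1 and 20.9 CPM with IL-13, against 40.0 CPM in untreated BMDMs. The closest to Tfrc were Eif5a (0.996), a translation factor, Eef1g (0.995), an elongation factor subunit, and Mcm4 (0.995) of the replicative helicase, which was at 49.1 CPM with IL-13 + DKK1, 25.7 CPM with DKK1 and 72.4 CPM with IL-13, against 25.0 CPM in untreated BMDMs.

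For Fth1, Ftl1 and Ncoa4 the copies Fth1-ps (0.993), Ftl1-ps1 (0.999) and Ncoa4-ps (0.997) came first. Next to Fth1 were Parp14 and Tma16 (0.993 each), next to Ftl1 were Ywhah (0.995) and Blnk (0.994), and next to Ncoa4 were Arhgap17 and Clec12a (0.991 each). Clec12a, an inhibitory receptor of myeloid cells, was at 165 CPM with IL-13 + DKK1, 239 CPM with DKK1 and 348 CPM with IL-13, against 521 CPM in untreated BMDMs. Slc11a1 was closest to Plcg2 (0.992), Arhgap45 (0.99) and Apoe (0.989), Slc11a2 to Ddx24, Bst2 (0.969 each) and Glmp (0.968), Aco1 to Eif1ad (0.951), Epb41l1 (0.948) and Hspa9 (0.946), and Ireb2 to Ids (0.939), Atl3 (0.937) and Itgb1 (0.936).

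Other genes of iron handling were taken from lists, whose counts stand beside the shares of all genes called: 11.6% with DKK1 (5.18% higher and 6.46% lower) and 8.13% with IL-13 (4.64% higher and 3.49% lower), each against untreated BMDMs. Of 12 tested genes of other iron transport and reductases, 3 were called with DKK1 against untreated BMDMs, all higher (median log2 fold change 0.01, against -0.04 over all genes). They were Slc39a14 (ZIP14, an importer of iron not bound to transferrin), at 86.6 ± 1.58 CPM with DKK1 and 16.0 ± 0.711 CPM in untreated BMDMs (SD, n = 3 each), Cp (ceruloplasmin, the ferroxidase that works with ferroportin), at 65.9 ± 4.10 CPM with DKK1 and 11.1 ± 2.25 CPM in untreated BMDMs, and Steap4, a metalloreductase that stayed under 1 CPM on average. The log2 fold changes were 2.43 ± 0.06 for Slc39a14 and 2.57 ± 0.10 for Cp (adjusted p = 3.35e-18 and 1.35e-15 by edgeR).

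Between IL-13 + DKK1 and IL-13, 5 of these 12 were called, all higher (10.8% of all genes were called, 4.66% higher; median 0.77, against 0 over all genes). Slc39a14 rose by 2.57 ± 0.07 and Cp by 2.78 ± 0.10. Slc39a8 (ZIP8, a related importer) rose by 1.58 ± 0.09 and Lcn2 (lipocalin 2, which binds bacterial siderophores) by 1.27 ± 0.10. The neutrophil marker sum was also higher with IL-13 + DKK1 than with IL-13 (719 to 887 against 475 to 692 CPM). The part of neutrophils in the Lcn2 level was not tested. With IL-13 alone, 1 of the 12 was called against untreated BMDMs, Heph, at 0.267 CPM with IL-13 and 1.01 CPM in untreated BMDMs on average, and the median was -0.21.

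Of 11 tested genes of heme uptake, degradation and export, 1 rose and 1 fell with DKK1 (median -0.19). Cd163, the receptor for hemoglobin bound to haptoglobin, was at 59.6 ± 2.07 CPM with DKK1 and 25.4 ± 1.32 CPM in untreated BMDMs (SD, n = 3 each), and Lrp1, which takes up heme bound to hemopexin, at 1190 ± 35.5 CPM with DKK1 and 2950 ± 122 CPM in untreated BMDMs. With IL-13, 2 were called (median -0.15), which fell, Cd163 by 1.10 ± 0.07 on the log2 scale and Hpx, a gene under 3 CPM. Cd163 was 2.20 ± 0.07 higher with IL-13 + DKK1 than with IL-13 (log2), the only called gene of the 11 there (median -0.19). Hmox1, the heme oxygenase that frees iron from heme, was at 1510 ± 48.7 CPM with IL-13 + DKK1, 1150 ± 60.7 CPM with DKK1 and 922 ± 33.0 CPM with IL-13, against 1290 ± 85.3 CPM in untreated BMDMs (SD, n = 3 each). Its interaction was 0.88 ± 0.06 (adjusted p = 7.75e-10 by edgeR).

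Of 10 tested genes of iron sensing and chaperones, 1 was called with DKK1 (Nedd4l, a ubiquitin ligase, which fell by 1.01 ± 0.06 on the log2 scale, median of the list 0.22), and 0 were called with IL-13 in edgeR and 0 in DESeq2 (median -0.01), where 2 were higher and 3 lower both at the adjusted p alone and at an unadjusted p under 0.05. Hfe, which binds the transferrin receptor, was at 490 ± 13.3 CPM with IL-13 + DKK1 and 198 ± 4.97 CPM in untreated BMDMs (SD, n = 3 each) and was called there (log2 fold change 1.31 ± 0.04, adjusted p = 7.92e-18 by edgeR). Fbxl5, the iron sensor that marks IRP2 for degradation, was at 89.0 ± 3.12 CPM with DKK1 and 52.8 ± 3.63 CPM in untreated BMDMs (0.75 ± 0.05, adjusted p = 1.32e-10 by edgeR), under the fold threshold.

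Over 24 tested genes of mitochondrial iron, iron-sulfur clusters and heme synthesis, the median log2 fold change with IL-13 was 0.11, and 0 of them were called with DKK1 in edgeR and 0 in DESeq2 (10 higher and 2 lower at the adjusted p alone, 10 and 3 at an unadjusted p under 0.05, median 0.10). Alas1, the first enzyme of heme synthesis outside red cells, was at 396 ± 22.0 CPM with IL-13 and 107 ± 1.51 CPM in untreated BMDMs (SD, n = 3 each), a log2 fold change of 1.89 ± 0.04 (adjusted p = 9.99e-19 by edgeR). It was at 231 ± 8.95 CPM with IL-13 + DKK1, and its interaction was -1.17 ± 0.06 (adjusted p = 2.66e-12 by edgeR), the same sign as for Tfrc.

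Of 14 transcription factors that act on iron genes, 2 rose and 1 fell with DKK1 (median -0.04). Hif1a, the hypoxia factor, was at 628 ± 29.7 CPM with DKK1 and 72.7 ± 2.54 CPM in untreated BMDMs (SD, n = 3 each), and Stat3, which acts on the hepcidin gene in liver, rose by 1.39 ± 0.05. Myc, a known activator of Tfrc and repressor of Fth1, fell by 2.90 ± 0.12 with DKK1 on the log2 scale. With IL-13 it rose by 0.79 ± 0.09 (adjusted p = 2.81e-07 by edgeR), short of the fold threshold. With IL-13 + DKK1 it was at 19.6 ± 1.72 CPM, against 19 ± 2.73 CPM in untreated BMDMs (SD, n = 3 each). Its interaction was 2.15 ± 0.16 (adjusted p = 7.51e-10 by edgeR). With IL-13, 1 of the 14 was called and fell (median -0.20). This was Spic, the factor of iron-recycling macrophages of the spleen, at 7.27 ± 1.08 CPM with IL-13 and 14.9 ± 2.02 CPM in untreated BMDMs (SD, n = 3 each). Nfe2l2 (NRF2), a known activator of ferritin and ferroportin genes, was not called with DKK1 (-0.03, adjusted p = 0.571 by edgeR). With IL-13 its log2 fold change was -0.3 (adjusted p = 2.16e-07 by edgeR), short of the fold threshold. So was that with IL-13 + DKK1 (-0.74, adjusted p = 8.37e-14 by edgeR). Its interaction was -0.41 (adjusted p = 1.53e-06 by edgeR). The part of these factors in the levels of the 9 genes was not tested.

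Of 8 genes that limit or promote iron-driven lipid peroxidation, 2 were called with DKK1, both higher (median 0.23), Slc7a11, the cystine importer, and Gch1, which makes tetrahydrobiopterin. Slc7a11 was at 24.2 ± 1.52 CPM with IL-13 + DKK1, 38.4 ± 3.28 CPM with DKK1 and 17.0 ± 2.95 CPM with IL-13, against 4.54 ± 0.298 CPM in untreated BMDMs (SD, n = 3 each). With IL-13, 1 rose (Slc7a11) and 1 fell (Alox15, a lipoxygenase that oxidizes lipids, under 1 CPM), with a median of 0.16.

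Promoters were read from RefSeq (GRCm38.p6), from 250 bases before to 50 after the start, and 7 of the 9 genes matched by symbol. Slc40a1 and Slc11a2 did not match, so their promoters were not searched. Sequence outside this window was not searched for any gene. The motif TGACNNNGC, the core of the antioxidant response element, was searched on both strands and stood in the window of 1 of the 7 (Ncoa4), against 12.4% of all promoters. The motif ACGTG, the core of the hypoxia response element, stood in the windows of Tfrc and Ncoa4, against 19.6% of all promoters. A gene was counted if any of its promoters matched, while the percentages are shares of single promoters, so they are not directly comparable. These matches are descriptions of letters only.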

How the data were processed

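Bulk RNA seq counts of 12 libraries were used. Per the labels and the study's methods, the authors checked reads with FastQC 0.11.9, aligned them to GRCm39 with STAR 2.7.6a, counted them with featureCounts and deposited raw counts per gene; DESeq2 1.30.0 was their test. Annotation and strand setting of the counting: not given in the sources used here. Overlapping genes and near-identical copies are therefore uncertain. No gene peaked under 11 counts. Columns were matched to samples by name. One column spells DKK1 without its last character and was read as IL-13 + DKK1 replicate 1.

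Genes were filtered with filterByExpr (minimum count 10, minimum total 15), scaled by TMM and fitted in 1 model of 4 group means with edgeR 4.0.16 in R 4.3.3, the quasi-likelihood test and Benjamini-Hochberg adjustment over 16306 genes. The standard error is the absolute log2 fold change over the root of F. On simulated data for DKK1 against untreated, genes were counted at the adjusted p alone. Of these, 95 of 100 genes changed 3-fold passed, as did 69 of 100 changed 1.5-fold and 6 of 14070 unchanged genes. A recovery above 95% had been asked at 3-fold, and 90% was accepted once that result was seen. Alternatives were other scalings, DESeq2 1.42.0, no filter, fewer groups, a replicate block, each library left out, and copies summed. Copies were found with blastn 2.17.0. The gene IDs matched GENCODE vM39 for 99.6%. Replicate counts differed by more than counting error in every pair (chi-square per gene 4.04 to 8.96). The labels call the replicates biological and give no number of mice, so p-values measure the spread between these cultures.

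The 9 genes and the lists were chosen with earlier results of these data known. Outside the 9, genes were named from lists, up to 4 called genes per list and comparison by adjusted p, or by the 3 highest Pearson r with a member. List genes set beside a member's result (Hmox1, Fbxl5, Nfe2l2, Pcna, the Myc values with IL-13 and IL-13 + DKK1) were added, and copies and overlapping genes were named for their shared sequence. The result of 1 list gene is not reported here. Adding the sums for Ncoa4 and Slc11a1 copies and the canonical length was decided after seeing the data.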

Additional observations from a re-analysis of the deposited data

Results flagged for a closer look

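For 4 of the 9 genes the effect of DKK1 differed with and without IL-13, by the interaction term of edgeR's quasi-likelihood test after Benjamini-Hochberg adjustment over all genes, which 26.3% of all genes passed. Tfrc had the largest of the 4 (-0.81 on the log2 scale, adjusted p = 1.88e-09). Its DKK1 effect was -0.74 with IL-13 and 0.06 without. For Fth1 the interaction was -0.34 (adjusted p = 0.000115), with DKK1 effects of 0.53 with IL-13 and 0.87 without. For Ftl1 it was -0.12 (adjusted p = 0.0205), with effects of -0.72 with IL-13 and -0.61 without. For Slc11a1 it was 0.32 (adjusted p = 0.000243), with effects of 0.27 with IL-13 and -0.05 without.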

How the results depend on the processing

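Of 1041 values of the 9 genes over 20 alternatives, 1038 gave the same call, 1 was lost, 2 were gained and 0 reversed. At the adjusted p alone, 17 were lost and 12 gained, among them Ireb2, Slc11a2 and the Ftl1 and Slc40a1 interactions given above. The number of genes lower with DKK1 was 2 with upper-quartile scaling and 2 with library size only, through Ncoa4. The number lower with IL-13 + DKK1 against IL-13 ranged from 0 to 1 over the libraries left out. The number with a positive interaction at the adjusted p alone was 2 with upper-quartile scaling, with library size only and with the replicate block, through Slc40a1, and ranged from 1 to 2 over the libraries left out. Library size only moved the median log2 fold change of all genes with DKK1 to -0.16, against -0.04 with TMM. By canonical transcript length, an alternative chosen after seeing the data, the Fth1 to Ftl1 level per kilobase was 4.65 with IL-13 + DKK1, 5.88 with DKK1, 1.96 with IL-13 and 2.12 in untreated BMDMs.

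Over all genes, the deviations of same-numbered libraries correlated at -0.064 to 0.082 and those of different numbers at -0.065 to 0.072. Such a check over all genes cannot exclude pairing in single genes. Fth1 was highest in replicate 1 of every group (12000 CPM with IL-13 + DKK1, 15300 with DKK1, 8730 with IL-13 and 8130 in untreated BMDMs). Ftl1 had no such order, with replicate 1 highest with IL-13 (4330 CPM) and lowest with DKK1 (2540 CPM). Slc40a1 was lowest in replicate 1 of each treated group (31.9 CPM with IL-13 + DKK1, 88.9 with DKK1 and 65.0 with IL-13). So was Ncoa4 (35.8 CPM with IL-13 + DKK1, 45.3 with DKK1 and 68.3 with IL-13). In untreated BMDMs, replicate 1 lay between the others for Slc40a1 (305 CPM) and Ncoa4 (97.0 CPM). With the replicate block the Slc40a1 interaction was 0.44 and passed the adjusted p alone (0.00199 by edgeR), short of the fold threshold. No call of the 9 genes changed with the block, and no other result of theirs changed sides at the adjusted p. Each group had 3 libraries, reads of near-identical copies could not be assigned with certainty, and mRNA levels say nothing here of IRE binding, protein or iron content.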
